A study of Mus musculus with 12 samples.

Results

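Gene expression in livers of Keap1-KD mice was compared with that in livers of Nrf2-null mice, genome-wide, over 5856 genes. Nrf2 is present and moderately active in the first genotype and absent in the second. All 5856 genes with a usable probe set were members of the comparison, the same number as in the whole series. The Keap1-KD mice carry a Keap1 allele, made for a loxP and Alb-Cre knockout, that lowers Keap1 in every tissue without Cre, and the Nrf2-null mice lack Nrf2 throughout the body. Both lines were backcrossed onto C57BL/6. All mice were untreated males of 8 weeks with free access to food. Liver RNA of 3 Keap1-KD and 3 Nrf2-null replicates, described as biological, was read on Affymetrix Mouse 430 2.0 arrays. The p-values rest on the spread between replicates within a genotype, taken over all 12 arrays of the series. Another 6 arrays of the series took no part in the difference, but entered the estimate of the spread and the choice of genes and probe sets. They were 3 of Keap1-HKO mice, in which the Keap1-KD allele is combined with Cre driven by the albumin promoter in hepatocytes, and 3 of wild-type mice. Since Keap1 is lowered throughout the body in Keap1-KD mice and Nrf2 is missing throughout the body in Nrf2-null mice, differences that arise in other organs cannot be told apart from those that arise in hepatocytes. In whole liver, fewer cells of a type and less RNA per cell cannot be told apart either.

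Nrf2, encoded by Nfe2l2, is a transcription factor that binds antioxidant response elements together with small Maf proteins. Keap1 holds Nrf2 in the cytoplasm and hands it to a Cul3 ubiquitin ligase for degradation, until electrophiles or oxidants modify Keap1 and let Nrf2 accumulate. In liver, Nrf2 is best known for its control of glutathione synthesis, glutathione transferases, quinone reductase, glucuronidation and the efflux of conjugates.

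Values are log2 intensities made by gcRMA, so that 1 unit is a doubling, and differences are given as Keap1-KD minus Nrf2-null. Array medians lay between 8.22 and 8.37. The arrays least like their own group were Nrf2-null replicate 1 and Keap1-HKO replicate 1. Over the 5856 genes their values lay on average 0.487 and 0.785 from the group median, and those of the other arrays 0.063 to 0.177. Exocrine pancreas and skeletal muscle genes, which were high on some Keap1-HKO and wild-type arrays, were mostly near the lowest values of the table here. The median of 13 pancreas genes was 2.3, 2.32 and 2.32 on the Keap1-KD arrays and 2.3, 2.61 and 2.3 on the Nrf2-null arrays. That of 11 muscle genes lay between 2.45 and 2.70 on all 6 arrays. In each genotype, 12 of the pancreas genes and 10 of the muscle genes had a mean under an intensity of 100. Of the pancreas genes, Reg1 stood at 6.98 on Nrf2-null replicate 2 and at 2.29 or 2.3 on the other 5 arrays. Ctrb1 stood at 4.42 on that array and at 2.29 on the other 5. Cela1 was far above the lowest values, at 8.72, 9.31 and 8.74 in Keap1-KD mice and 10.28, 10.16 and 10.05 in Nrf2-null mice. Hepatocyte markers had a median of 15.41, 15.33 and 15.40 on the Keap1-KD arrays and 15.24, 15.39 and 15.39 on the Nrf2-null arrays.

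Of the 5856 genes, 58 (0.99%) were higher and 22 (0.376%) were lower in Keap1-KD than in Nrf2-null mice by limma at an adjusted p under 0.05. After a second quantile normalization the counts were 47 higher and 5 lower, so that the share of higher genes among all calls depends on the scaling. With the replicate number as a block the fit called 74 higher and 36 lower, and with only these 6 arrays in the fit 32 higher and 8 lower. Without the spread of the other arrays, 26 of the 58 and 14 of the 22 calls were thus lost. The block in the fit of these 6 arrays, an alternative added after seeing the data, called 14 higher and 1 lower. Those were 9130409I23Rik, Nfe2l2, Ces1g, Gstm1, Gstm2, Gstm3, Aox1, Ugt2b35, Abcc3, Pir, Cbr3, Entpd5, Ephx1 and Hexa, and Keap1 as the lower gene, so that the calls of the other 44 and 21 were lost there. With 1 array left out of the fit of all 12 arrays without a block, the fewest calls were 36 higher and 7 lower, without Keap1-KD replicate 2. The most were 96 higher and 59 lower, without Keap1-HKO replicate 1. Of the 58 higher genes 33 passed whichever of the 12 arrays was left out, and of the 22 lower ones 6. Differences of called genes ran from 0.55 to 7.25 among the higher ones, with a median of 1.68, and among the lower ones they reached a drop of 4.72 for Tff3. All 58 and all 22 had 3 Keap1-KD arrays beyond all 3 Nrf2-null arrays, as had 8.3% of all genes in the higher direction and 13% in the lower one. The median difference over all genes was −0.03. Of the genes called higher, 11 had a Nrf2-null mean under an intensity of 100 (6.64 on the log2 scale), which the methods took as the limit for an expressed probe, and another 4 had both means under it. Of the genes called lower, 9 had a Keap1-KD mean under that limit. For a gene with 1 group under the limit the fold is a bound, the mean un-logged intensity of the higher group against 100.

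**Figure D1:**
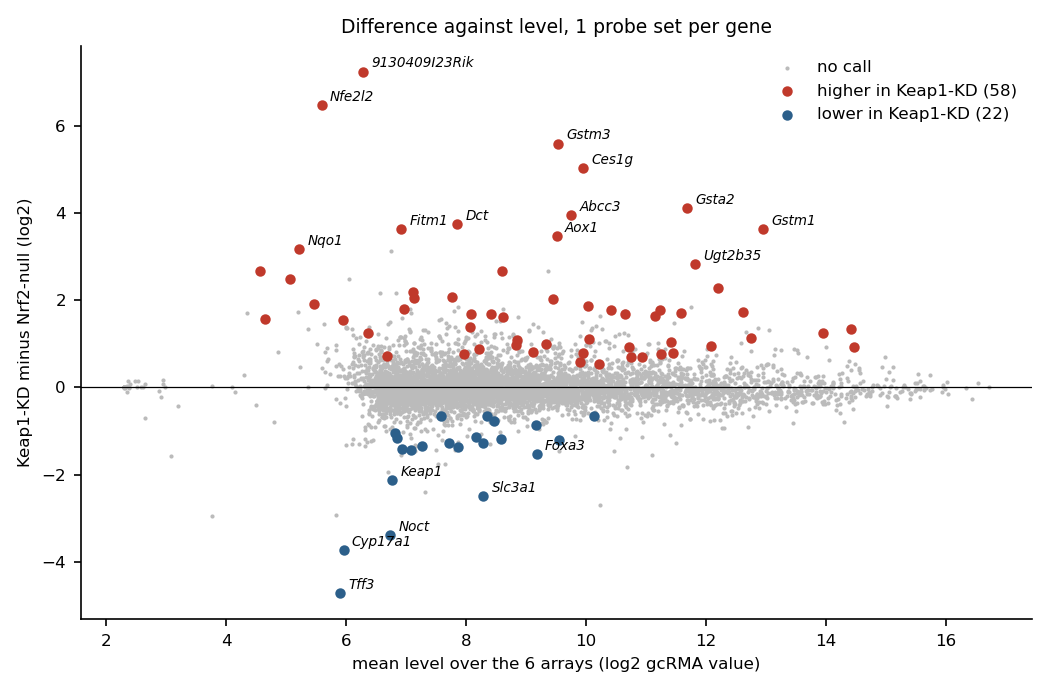
Difference between Keap1-KD and Nrf2-null livers (y axis, log2) against the mean level over the 6 arrays (x axis, log2 gcRMA value), 1 point per gene for 5856 genes, with the 58 genes called higher in red and the 22 called lower in blue. The largest differences upward, 9130409I23Rik at 7.25 and Nfe2l2 at 6.48, exceed the largest downward, Tff3 at −4.72.

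The targeted genes followed the genotypes. Nfe2l2 stood at 8.65, 9.03 and 8.81 on the Keap1-KD arrays and at 2.46, 2.29 and 2.29 on the Nrf2-null arrays. The Nrf2-null values are at the bottom of the table, where the lowest value is 2.29. The difference was 6.48 (standard error 0.17, adjusted p = 1.34e-08), at least 4.58-fold. Keap1 stood at 5.92, 5.59 and 5.59 on the Keap1-KD arrays and at 8.07, 7.67 and 7.72 on the Nrf2-null arrays. It fell by 2.12 (standard error 0.15, adjusted p = 4.48e-05), a drop of at least 2.28-fold. After a second quantile normalization Keap1 no longer passed (adjusted p = 0.112).

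The core of the antioxidant response element, TGACNNNGC, was looked for on both strands from 250 bases before to 50 bases after annotated start sites. It was present in at least 1 window of 16 of 52 higher genes that had a window (30.8%), of 2 of 14 lower genes (14.3%) and of 844 of 4822 genes of the whole table (17.5%). The 16 were 9130409I23Rik, Ugdh, Slc35d1, Txnrd1, Srxn1, Abcc4, Pir, Hexa, Fitm1, Keg1, B3galt1, Pparg, Tbcel, Spint2, Anxa7 and Nfe2l2, and the lower genes Cpsf7 and Prrc2c. The 250 bases before the start site are shown for a set of 4: 9130409I23Rik, which had the largest difference, Ugdh and Slc35d1, which supply UDP-glucuronic acid, and Txnrd1, of the thioredoxin system. Sequences are from RefSeq on GRCm38.p6 and run 5′ to 3′ along the gene, with matches to the core in capitals; a match on the opposite strand reads GCNNNGTCA.
9130409I23Rik, chr1:181050987-181051236, plus strand: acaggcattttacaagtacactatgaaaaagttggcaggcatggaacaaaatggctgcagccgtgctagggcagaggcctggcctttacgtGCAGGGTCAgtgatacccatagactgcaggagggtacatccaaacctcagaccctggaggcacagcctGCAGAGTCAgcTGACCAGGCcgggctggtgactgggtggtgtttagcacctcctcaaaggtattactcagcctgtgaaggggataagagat
Ugdh, chr5:65435843-65436092, minus strand: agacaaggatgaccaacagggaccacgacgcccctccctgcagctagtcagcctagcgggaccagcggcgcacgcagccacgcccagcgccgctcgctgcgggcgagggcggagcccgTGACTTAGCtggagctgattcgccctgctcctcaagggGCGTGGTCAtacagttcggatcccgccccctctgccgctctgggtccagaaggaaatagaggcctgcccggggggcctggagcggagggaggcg
Slc35d1, chr4:103215177-103215426, minus strand: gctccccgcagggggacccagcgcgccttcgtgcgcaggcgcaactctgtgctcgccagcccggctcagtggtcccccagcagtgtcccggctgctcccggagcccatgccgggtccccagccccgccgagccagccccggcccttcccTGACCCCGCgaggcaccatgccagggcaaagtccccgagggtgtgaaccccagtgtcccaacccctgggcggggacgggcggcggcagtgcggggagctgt
Txnrd1, chr10:82858956-82859205, plus strand: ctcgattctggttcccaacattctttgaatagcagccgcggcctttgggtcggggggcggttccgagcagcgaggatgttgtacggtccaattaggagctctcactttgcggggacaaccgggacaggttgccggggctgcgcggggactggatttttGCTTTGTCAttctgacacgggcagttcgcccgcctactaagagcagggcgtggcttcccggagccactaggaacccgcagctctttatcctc
The window of 9130409I23Rik held 3 matches, which begin 159, 91 and 80 bases before the start site, the last 2 of them with a pair of bases between. That of Ugdh held 2, at 132 and 94 bases. Those of Slc35d1 and Txnrd1 held 1 each, at 101 and 92 bases. Gstm1, Gstm3, Gsta2, Ces1g, Aox1, Ephx1 and Nqo1 had 1 or more windows without a match, which says only that the letters are not in those 300 bases.

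Glutathione transferases, which couple glutathione to electrophiles, held the largest group of called genes. Of 20 measured, 6 were higher in Keap1-KD mice and 0 lower, with a median difference of 0.27 over the list. Gstm3, of the mu class, stood at 13.20, 12.14 and 11.65 in Keap1-KD mice and at 7.10, 6.75 and 6.36 in Nrf2-null mice. The lowest Keap1-KD array thus lay far above the highest Nrf2-null array, although Keap1-KD replicate 1 was the highest of its group by a wide margin. The difference was 5.59 (standard error 0.42, adjusted p = 6.93e-05), or 48.3-fold. A second probe set of Gstm3 gave a smaller difference, 3.18 (standard error 0.39), which also passed (adjusted p = 0.0028 over all probe sets). Gsta2, of the alpha class, had values of 14.50, 13.32 and 13.40 in Keap1-KD mice and of 9.49, 9.76 and 9.63 in Nrf2-null mice, a difference of 4.11 (adjusted p = 0.00031). Gstm1 stood at 15.12, 14.75 and 14.44 in Keap1-KD mice and at 11.70, 10.84 and 10.86 in Nrf2-null mice, a difference of 3.64 (adjusted p = 0.000208), with differences between 3.0 and 3.53 for its 3 other probe sets.

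The other called transferases differed less. Gstm4 was 6.39-fold higher in Keap1-KD mice (difference 2.68, adjusted p = 0.00147). Gstm2 was 4.10-fold higher (difference 2.04, adjusted p = 0.0123) and did not pass without Keap1-KD replicate 2 or without Nrf2-null replicate 2 or 3 (adjusted p up to 0.0569). Gsta4, which conjugates the lipid peroxidation product 4-hydroxynonenal, was 3.43-fold higher (difference 1.78, adjusted p = 0.0075). Mu-class transcripts are close in sequence, so that signal shared between their probe sets cannot be told apart from a higher level of each.

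**Figure D2:**
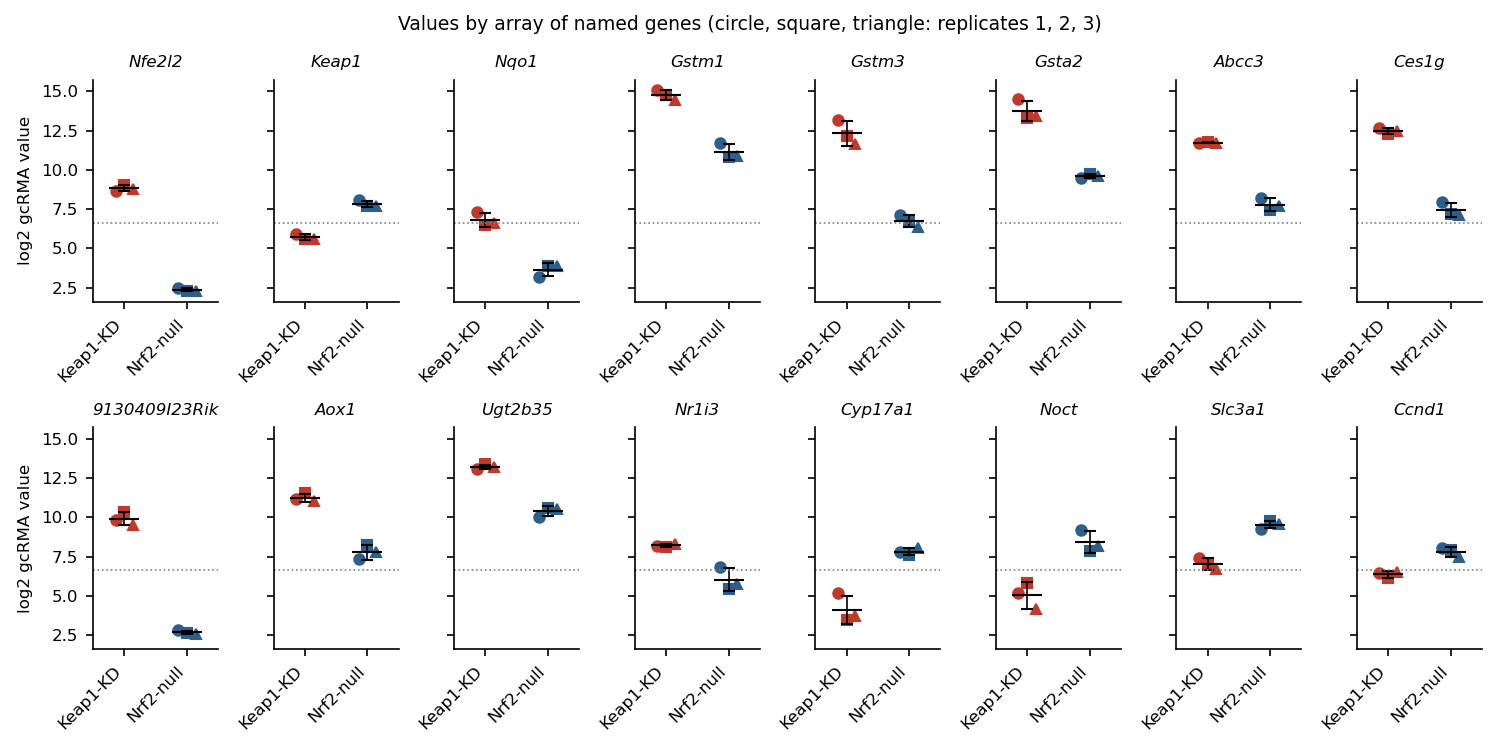
Log2 gcRMA values (y axis) of 16 named genes on the 3 Keap1-KD arrays (left in each panel, red) and the 3 Nrf2-null arrays (right, blue), 1 point per array (circle, square and triangle for replicates 1, 2 and 3), with the mean and SD in black and the intensity of 100 (6.64) as a dotted line. The groups do not overlap in any panel, and Nfe2l2 and 9130409I23Rik lie at the bottom of the scale in Nrf2-null mice.

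Among 10 genes for the reduction of quinones and carbonyls and the hydrolysis of epoxides, 3 were higher and 0 lower, with a median difference of 0.62. Nqo1, the quinone reductase most often used as a readout of Nrf2, stood at 7.29, 6.51 and 6.61 in Keap1-KD mice and at 3.15, 3.86 and 3.88 in Nrf2-null mice. Its difference was 3.17 (standard error 0.29, adjusted p = 0.000276), but only the Keap1-KD mean reached the limit for an expressed probe, so that the fold is at least 1.15. Ephx1, microsomal epoxide hydrolase, was well expressed in both, at 13.33, 13.50 and 13.21 in Keap1-KD mice and 11.35, 11.01 and 10.86 in Nrf2-null mice, which is 4.84-fold (difference 2.28, adjusted p = 0.00119). Cbr3, a carbonyl reductase, differed by 2.67 (adjusted p = 0.000368) with values of 6.26, 5.76 and 5.68 in Keap1-KD mice and 3.35, 3.47 and 2.88 in Nrf2-null mice. All 6 values lie under the limit, and no fold is given. With values raised to at least 100, Nqo1 and Cbr3 did not pass (adjusted p = 0.8 and 1.0), and after a second quantile normalization Cbr3 did not (adjusted p = 0.0781).

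Enzymes that carry molybdenum or flavin and the carboxylesterases also held called genes. Aldehyde oxidase Aox1 stood at 11.16, 11.53 and 11.05 in Keap1-KD mice and at 7.32, 8.24 and 7.77 in Nrf2-null mice, an 11.1-fold difference (3.47 on the log2 scale, adjusted p = 4.48e-05). Aox3, encoded beside it, was 3.24-fold higher (difference 1.70, adjusted p = 0.0128), but not past the threshold without Keap1-KD replicate 2 or 3 or Nrf2-null replicate 3 (adjusted p up to 0.0724). These were 2 of 6 measured in that list, and 0 were lower. Of 9 carboxylesterases, all with a difference above 0, Ces1g alone passed by limma. Ces1g, which hydrolyses esters and triglyceride in hepatocytes, had values of 12.67, 12.27 and 12.48 in Keap1-KD mice and 7.95, 7.21 and 7.13 in Nrf2-null mice, a difference of 5.04 (standard error 0.27, adjusted p = 8.48e-06), or 32.9-fold. Ces1f had a difference of 0.88 (adjusted p = 0.0883) and did not pass. The median of the carboxylesterase list was 0.65.

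Genes for glucuronidation were higher at several steps. Ugdh makes UDP-glucuronic acid from UDP-glucose, Slc35d1 carries it into the endoplasmic reticulum, and the Ugt enzymes transfer its sugar to drugs and steroids. Ugdh stood at 12.15, 12.31 and 11.90 in Keap1-KD mice and at 10.07, 10.79 and 10.18 in Nrf2-null mice, a 3.42-fold difference (1.77 on the log2 scale, adjusted p = 0.00553). Slc35d1 stood at 10.96, 11.45 and 11.12 in Keap1-KD mice and at 10.54, 10.16 and 10.08 in Nrf2-null mice, a difference of 0.92 (adjusted p = 0.0345) that did not pass with the replicate block, nor under 9 of the 12 omissions of 1 array (adjusted p up to 0.146). The upstream sequences of both genes are among those shown above. These were 2 of 4 measured genes of cofactor supply, while Ugp2, which makes UDP-glucose, had a difference of 0.84 (adjusted p = 0.475).

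Of 9 Ugt genes 3 passed, all higher and all of the Ugt2b cluster, and the median difference of the list was 0.77. In the limma fit over all probe sets, a further probe set of Ugt3a1 was higher by 0.81 (adjusted p = 0.015). A probe set shared by genes of the Ugt1a cluster was higher there by 0.61 (adjusted p = 0.0398). Ugt2b35 had values of 13.10, 13.38 and 13.21 in Keap1-KD mice and 10.04, 10.61 and 10.56 in Nrf2-null mice, a 7.08-fold difference (2.82 on the log2 scale, adjusted p = 6.93e-05). Ugt2b36 was 2.39-fold higher (difference 1.26, adjusted p = 0.000208) and Ugt2b5 2.52-fold higher (difference 1.33, adjusted p = 0.00499). Ugt2b5 stood at 15.10, 15.13 and 15.05 in Keap1-KD mice and at 13.29, 13.97 and 14.02 in Nrf2-null mice. Its call was lost with only the 6 Keap1-KD and Nrf2-null arrays in the fit (adjusted p = 0.082). Ugt2b transcripts too are close in sequence and may share signal. Entpd5, an endoplasmic reticulum enzyme that removes the UDP left by sugar transfer, was 3.22-fold higher (difference 1.69, adjusted p = 0.000557), and its 5 probe sets all showed the difference, the 4 others with values between 1.66 and 1.86. Cryl1, which oxidises L-gulonate in the glucuronate pathway, stood at 8.59, 7.85 and 8.05 in Keap1-KD mice and at 6.18, 5.99 and 6.18 in Nrf2-null mice and was at least 2.93-fold higher (difference 2.05, adjusted p = 0.00424).

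**Figure D3:**
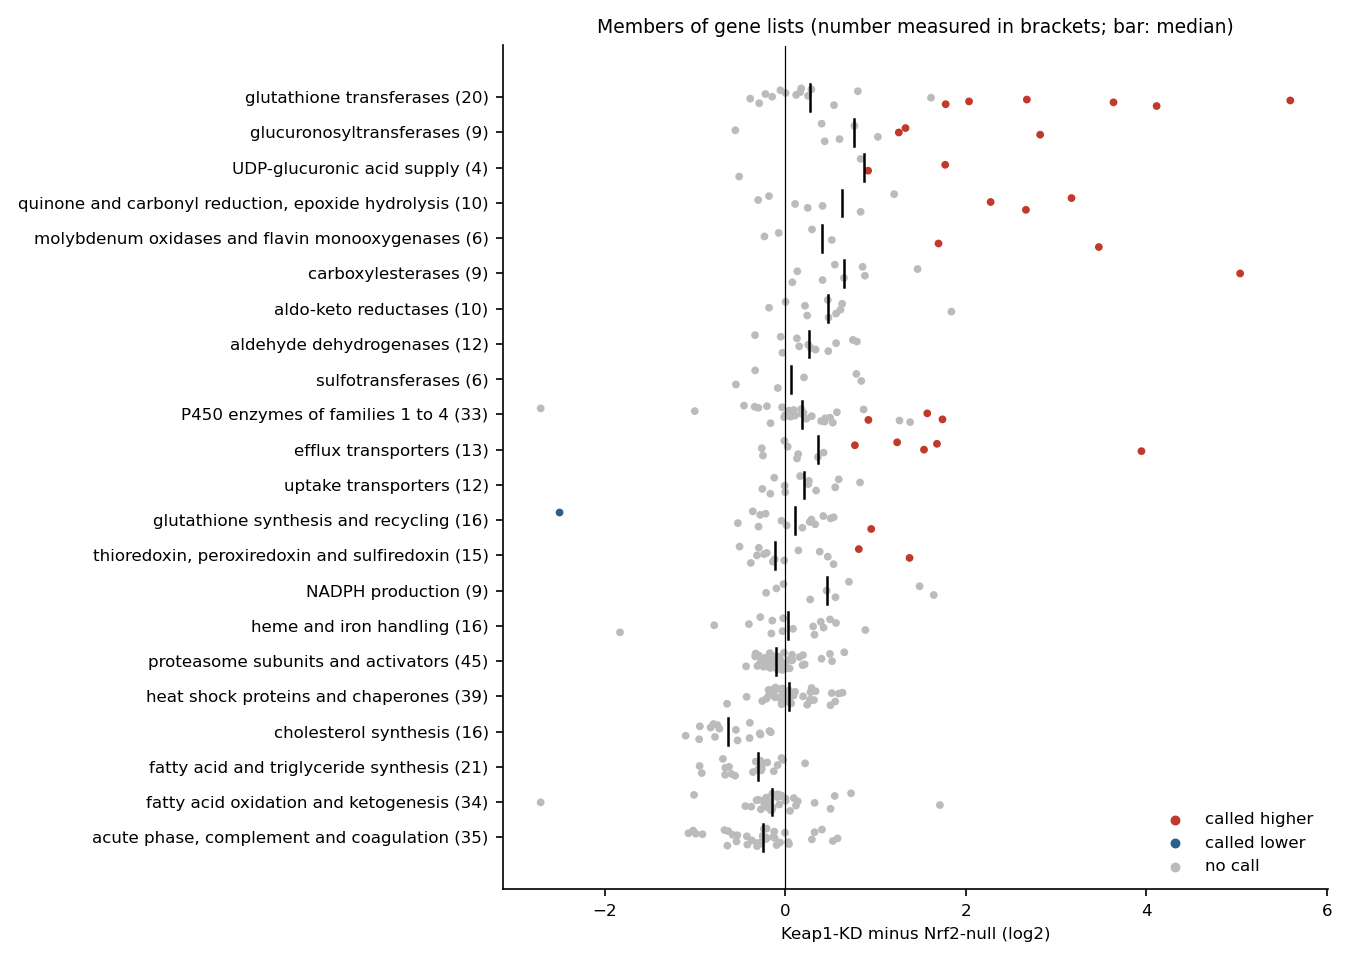
Difference between Keap1-KD and Nrf2-null livers (x axis, log2) of each measured member of 22 gene lists, with called genes in red (higher) or blue (lower) and the median of each list as a black bar. Glutathione transferases reach 5.59 for Gstm3, while the medians of proteasome subunits and heat shock proteins are −0.10 and 0.04 and all 16 cholesterol synthesis genes lie under 0 with no call.

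Of 33 measured P450 enzymes 3 were higher and 0 lower by limma, with a median difference of 0.18. At an unadjusted p under 0.05, 8 were higher and 3 lower, where 4.7% and 5.81% of all genes were. A probe set shared by Cyp2a4 and Cyp2a5, outside these 33 because it lists both genes, was higher by 4.14. Cyp2c54 stood at 13.64, 13.31 and 13.52 in Keap1-KD mice and at 12.37, 11.46 and 11.41 in Nrf2-null mice, a 3.35-fold difference (1.74 on the log2 scale, adjusted p = 0.00546). The neighbouring Cyp2c50 was 1.89-fold higher (difference 0.92, adjusted p = 0.00288). Cyp2c54 and Cyp2c50 did not pass with only the 6 Keap1-KD and Nrf2-null arrays in the fit (adjusted p = 0.0804 and 0.0528). Cyp2c37 of the same cluster had a difference of 1.27 (adjusted p = 0.0518) and Cyp2c29 one of 0.40 (adjusted p = 0.211), and neither passed. Cyp2g1 differed by 1.57 (adjusted p = 0.0345) with all 6 values under an intensity of 100, and did not pass under 9 of the 12 omissions of 1 array (adjusted p up to 0.146).

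Cyp4a14, a fatty acid hydroxylase, had a wide spread. It stood at 8.46, 8.73 and 9.45 in Keap1-KD mice and at 12.71, 9.38 and 12.68 in Nrf2-null mice, so that the groups overlapped, although the Keap1-KD array was the lower within each of the 3 same-numbered pairs. The difference of −2.71 had a standard error of 1.01 and an adjusted p of 0.339. Keap1-HKO and wild-type means of this gene were 4.43 and 4.80, under those of both genotypes compared here.

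Of 13 receptors for drugs and lipids, 2 were higher and 0 lower. Nr1i3, which encodes CAR, the receptor behind phenobarbital induction, stood at 8.20, 8.11 and 8.31 in Keap1-KD mice and at 6.84, 5.45 and 5.76 in Nrf2-null mice. Nrf2-null replicate 1 was closer to the Keap1-KD arrays than the other pair but still under all 3. The difference was 2.19 (standard error 0.41, adjusted p = 0.0269), at least 2.96-fold, and did not pass under 8 of the 12 omissions of 1 array (adjusted p up to 0.117). Pparg, the adipogenic lipid receptor, differed by 1.92 (adjusted p = 0.00538) with both group means under an intensity of 100, at 6.86, 6.15 and 6.25 in Keap1-KD mice and 4.54, 4.49 and 4.47 in Nrf2-null mice. It did not pass with values raised to at least 100 (adjusted p = 0.889) or after a second quantile normalization (adjusted p = 0.313).

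Efflux transporters, which move conjugates into blood or bile, held 5 higher genes of 13 measured and 0 lower, with a median difference of 0.36. Abcc3 (Mrp3), an exporter of glucuronides across the basolateral membrane, had values of 11.69, 11.78 and 11.72 in Keap1-KD mice and 8.23, 7.43 and 7.69 in Nrf2-null mice. The Keap1-KD arrays were within 0.1 of each other, and the difference of 3.95 (standard error 0.30, adjusted p = 6.93e-05) was 15.4-fold. Abcc4 (Mrp4), on the same membrane, stood at 6.90, 6.72 and 6.51 in Keap1-KD mice and at 5.37, 4.96 and 5.19 in Nrf2-null mice, with a difference of 1.54 (adjusted p = 0.00116) that is at least 1.05-fold. Abcc4 did not pass with values raised to at least 100 (adjusted p = 0.807), nor with arrays quantile-normalized again (adjusted p = 0.177). The sterol exporters Abcg5 and Abcg8, which act as a heterodimer, both passed. Abcg5 was 3.21-fold higher (difference 1.68, adjusted p = 0.00198) and Abcg8 at least 1.29-fold (difference 1.24, adjusted p = 0.0478). Abcg8 did not pass with the replicate block, nor under 10 of the 12 omissions of 1 array (adjusted p up to 0.204). Abcg2 (Bcrp), which exports sulfates and urate, was 1.71-fold higher (difference 0.77, adjusted p = 0.0102) and did not pass without Keap1-KD replicate 3 (adjusted p = 0.061). Of 12 uptake transporters 0 passed by limma, with 1 higher and 0 lower at an unadjusted p under 0.05, where 4.7% and 5.81% of all genes were.

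Antioxidant genes held few calls by limma. Of 16 genes for glutathione synthesis and recycling, 4 were higher and 2 lower at an unadjusted p under 0.05, where 4.7% and 5.81% of all genes were. Gclc, the catalytic subunit of the enzyme that limits glutathione synthesis, stood at 12.61, 12.76 and 12.31 in Keap1-KD mice and at 11.76, 11.60 and 11.46 in Nrf2-null mice, a 1.94-fold difference (0.95 on the log2 scale, adjusted p = 0.021). Gclc was the single one of 16 genes of glutathione synthesis and recycling to be called higher by limma, and did not pass without Keap1-KD replicate 1 or 2 or Nrf2-null replicate 2 or 3 (adjusted p up to 0.107). Gsr, glutathione reductase, had a difference of 0.54 (adjusted p = 0.135). The single gene of that list to be lower was Slc3a1, the heavy chain of the cystine transporter rBAT, with values of 7.43, 6.97 and 6.71 in Keap1-KD mice and 9.28, 9.74 and 9.59 in Nrf2-null mice. It was 5.65-fold lower in Keap1-KD mice (difference −2.50, standard error 0.31, adjusted p = 0.00232), but did not pass after a second quantile normalization (adjusted p = 0.291).

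In the thioredoxin system, 2 of 15 genes were higher and 0 lower by limma, and 5 were higher and 2 lower at an unadjusted p under 0.05. Srxn1, which repairs overoxidised peroxiredoxins, stood at 8.95, 8.61 and 8.71 in Keap1-KD mice and at 7.64, 7.32 and 7.18 in Nrf2-null mice, a 2.60-fold difference (1.38 on the log2 scale, adjusted p = 0.00119). A second probe set of Srxn1 differed by 0.41 and did not pass (adjusted p = 0.286 over all probe sets). Txnrd1, cytosolic thioredoxin reductase, whose upstream sequence is shown above, stood at 9.60, 9.62 and 9.35 in Keap1-KD mice and at 8.79, 8.73 and 8.62 in Nrf2-null mice, a 1.76-fold difference (0.82 on the log2 scale, adjusted p = 0.00623). Txnrd1 did not pass with only the 6 Keap1-KD and Nrf2-null arrays in the fit (adjusted p = 0.0755). Txn1 had a difference of 0.47 (adjusted p = 0.211).

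None of 9 NADPH-producing enzymes passed by limma, with 3 higher and 0 lower at an unadjusted p under 0.05 and 3 and 0 by Duncan's multiple range test. Malic enzyme Me1 stood at 11.27, 10.81 and 11.11 in Keap1-KD mice and at 9.57, 8.65 and 10.03 in Nrf2-null mice, a difference of 1.65 (standard error 0.41, adjusted p = 0.102) without overlap. Transketolase Tkt had a difference of 0.71 (adjusted p = 0.097). With the replicate block 2 of the 9 passed, and with the block in the fit of 6 arrays 0. Of 16 genes for heme and iron 0 passed, with 3 higher and 2 lower at an unadjusted p under 0.05. Ferritin heavy chain Fth1 differed by 0.31 (adjusted p = 0.373) and biliverdin reductase Blvrb by 0.89 (adjusted p = 0.242).

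Outside drug processing, the largest difference of all was that of 9130409I23Rik, a protein-coding gene without a given function in the annotation used. Its upstream sequence, with 3 matches to the core, is shown above. It stood at 9.85, 10.35 and 9.54 in Keap1-KD mice and at 2.79, 2.62 and 2.58 in Nrf2-null mice, close to the lowest value of the table. The difference of 7.25 (standard error 0.50, adjusted p = 4.48e-05) is at least 9.90-fold. Dct, dopachrome tautomerase, had values of 10.48, 9.60 and 9.07 in Keap1-KD mice and 5.89, 7.32 and 4.71 in Nrf2-null mice. Both groups were wide, without overlap, and the difference of 3.74 had a standard error of 0.62 (adjusted p = 0.0128, at least 9.16-fold). It did not pass without Keap1-KD replicate 1 or 2 (adjusted p up to 0.0672). Fitm1, an endoplasmic reticulum protein of lipid droplet formation, stood at 8.53, 9.0 and 8.69 in Keap1-KD mice and at 5.89, 4.90 and 4.51 in Nrf2-null mice (difference 3.64, adjusted p = 0.00251, at least 4.32-fold). B3galt1, a galactosyltransferase, differed by 2.50 (adjusted p = 0.00487) with both means under an intensity of 100. It did not pass with values raised to at least 100 (adjusted p = 1.0) or after a second quantile normalization (adjusted p = 0.0666).

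Further genes were higher by smaller amounts. Pir, an iron-binding nuclear protein, stood at 8.90, 8.83 and 8.69 in Keap1-KD mice and at 6.92, 6.78 and 6.47 in Nrf2-null mice, a 4.24-fold difference (2.08 on the log2 scale, adjusted p = 0.000208). Hexa, the alpha subunit of the lysosomal enzyme that degrades gangliosides, was 3.68-fold higher (difference 1.88, adjusted p = 0.00119). Cd59a, which blocks the membrane attack complex of complement, was 3.09-fold higher (difference 1.63, adjusted p = 0.000765), with a smaller difference of 0.75 for its second probe set (adjusted p = 0.0374 over all probe sets). Acsm1 and Acsm5, medium-chain acyl-CoA synthetases, were 2.05-fold and 1.95-fold higher. Coq7, of ubiquinone synthesis, was 2.0-fold higher (difference 1.0, adjusted p = 0.00846), and Chdh, which oxidises choline, 1.63-fold higher (difference 0.71, adjusted p = 0.0133). The remaining higher genes were Slc35e3, Tceal8, Keg1, S100a10, Arpp19, Tbcel, Mlec, Mfsd4b1, Lonp2, Micu2, Prmt3, Spint2, Anxa7 and Tex2, with differences between 0.55 and 1.80. Of these smaller differences, those of Pir, Hexa, Cd59a, Tceal8 and Tbcel passed whichever array was left out. The others did not pass under at least 1 such omission, with adjusted p up to 0.184. Tceal8 did not pass with only the 6 Keap1-KD and Nrf2-null arrays in the fit (adjusted p = 0.0773).

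The 22 genes that were lower in Keap1-KD mice belonged to no single list. After a second quantile normalization 17 of them did not pass, with adjusted p between 0.0548 and 0.645, and those that did were Bace1, Ccnd1, Foxa3, Jund and Lbr. Tff3, trefoil factor of mucosal repair, stood at 4.05, 2.82 and 3.75 in Keap1-KD mice and at 8.26, 9.96 and 6.56 in Nrf2-null mice. The Nrf2-null values spanned more than 3 units, and the difference of −4.72 had a standard error of 0.83 (adjusted p = 0.0194). That is at least 4.66-fold lower, and the call was lost under 11 of 31 alternatives, among them the omission of any Keap1-KD array or of Nrf2-null replicate 1 or 2 (adjusted p up to 0.103). Cyp17a1, the 17α-hydroxylase of steroid synthesis, had values of 5.15, 3.45 and 3.68 in Keap1-KD mice and 7.79, 7.60 and 8.06 in Nrf2-null mice, a difference of −3.72 (adjusted p = 0.0121, at least 2.27-fold lower) that did not pass without Keap1-KD replicate 2 or 3 or Nrf2-null replicate 3 (adjusted p up to 0.0616). Noct, a rhythmic protein of the clock output known as nocturnin, stood at 5.17, 5.82 and 4.13 in Keap1-KD mice and at 9.21, 7.87 and 8.18 in Nrf2-null mice, a difference of −3.38 (adjusted p = 0.00471, at least 3.72-fold lower). Noct did not pass with only the 6 Keap1-KD and Nrf2-null arrays in the fit (adjusted p = 0.0755). Of 12 genes in the circadian list, Noct was the 1 called, and the time of day of the dissections was not given in the sources used here.

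Several regulators were among the lower genes. Ccnd1, cyclin D1, stood at 6.47, 6.11 and 6.53 in Keap1-KD mice and at 8.06, 7.89 and 7.47 in Nrf2-null mice, a difference of −1.44 (adjusted p = 0.00326, at least 2.27-fold lower), and was the 1 called gene of 6 in the cell cycle list. A second probe set of Ccnd1 differed by −0.91 and did not pass (adjusted p = 0.124 over all probe sets). Foxa3, a transcription factor of hepatocytes, stood at 8.04, 8.79 and 8.42 in Keap1-KD mice and at 10.04, 9.97 and 9.81 in Nrf2-null mice, 2.87-fold lower in Keap1-KD mice (difference −1.52, adjusted p = 0.0135). Jund, a subunit of AP-1, was 2.18-fold lower (difference −1.13, adjusted p = 0.0102). Avpr1a, the vasopressin receptor of liver, was 2.42-fold lower (difference −1.28, adjusted p = 0.0234). Spsb4, Tomm40l, Zdhhc14 and Acin1 were at least 1.65-fold to 2.45-fold lower. Gpd2, the mitochondrial glycerol-3-phosphate dehydrogenase, was 2.26-fold lower (adjusted p = 0.0471), with 2 further probe sets that differed by −0.48 and −1.19 and did not pass. Pglyrp2, Gm2788 and Erdr1 differed by −1.22, −1.27 and −1.38. The smallest drops, between −0.65 and −0.87, were those of Bace1, Cpsf7, Hnrnpd, Lbr and Prrc2c. Among these regulators and the genes after them, Ccnd1, Tomm40l and Zdhhc14 passed whichever array was left out, and the others did not pass under at least 1 such omission, with adjusted p up to 0.203. With only the 6 Keap1-KD and Nrf2-null arrays in the fit, Ccnd1 and Zdhhc14 did not pass either (adjusted p = 0.0531 and 0.0633).

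Several families held no called gene by limma. Of 45 proteasome genes, with a median difference of −0.10, 0 were higher and 0 lower at an unadjusted p under 0.05. Of 39 heat shock proteins and chaperones 0 were higher and 1 was lower at that level, and the median was 0.04. Of 10 aldo-keto reductases 2 were higher and 0 lower at an unadjusted p under 0.05, among them Akr1a1 with a difference of 0.48 (adjusted p = 0.116). Its other probe sets differed more, by 0.77, 0.74 and 0.72, and did not pass (adjusted p = 0.0916, 0.09 and 0.0755 over all probe sets). Of 12 aldehyde dehydrogenases 3 were higher and 1 lower at an unadjusted p under 0.05, and Aldh1a1 had a difference of 0.48 (adjusted p = 0.13). Of 6 sulfotransferases 1 was higher at that level, Sult1b1, with a difference of 0.84 (adjusted p = 0.0717). Over all genes, 275 (4.7%) were higher and 340 (5.81%) lower at an unadjusted p under 0.05.

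Lists of genes for lipid synthesis and for secreted plasma proteins had medians under that of all genes, without a call by limma. All 16 cholesterol synthesis genes had a difference under 0, with a median of −0.64, where 3144 of all 5856 genes did. At an unadjusted p under 0.05, 8 of the 16 were lower, and Duncan's test called 3. That test, which was not adjusted over genes, called 242 of all 5856 genes lower. The median level of the list was 11.59, 10.85 and 10.87 on the Keap1-KD arrays and 12.05, 11.58 and 12.10 on the Nrf2-null arrays, so that Keap1-KD replicate 1 was as high as Nrf2-null replicate 2, while within each of the 3 same-numbered pairs the Keap1-KD array was the lower. Sc5d, a sterol desaturase, had a difference of −0.75 (adjusted p = 0.135), Msmo1, which removes methyl groups from sterols, one of −0.73 (adjusted p = 0.211) and farnesyl diphosphate synthase Fdps one of −1.10 (adjusted p = 0.222). Without Nrf2-null replicate 1 the median was −0.58 and all 16 were again under 0. Of 21 genes for fatty acid and triglyceride synthesis 4 were lower at an unadjusted p under 0.05, with a median of −0.30, or −0.17 without Nrf2-null replicate 1. Fatty acid synthase Fasn differed by −0.95 (adjusted p = 0.402).

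Of 35 genes for acute phase, complement and coagulation, 11 were lower and 0 higher at an unadjusted p under 0.05, where 5.81% and 4.7% of all genes were. The median was −0.25, while 7 of the 35 had a difference above 0, up to 0.58. In 17 the Keap1-KD arrays lay below all Nrf2-null arrays, as they did in 13% of all genes, and in 1 above. Itih4, an inter-alpha-trypsin inhibitor chain, stood at 14.06, 13.84 and 13.95 in Keap1-KD mice and at 14.70, 14.40 and 14.49 in Nrf2-null mice, a difference of −0.58 (adjusted p = 0.0741). Itih3 differed by −0.53 (adjusted p = 0.0809) and haptoglobin Hp by −0.42 (adjusted p = 0.135). Of 9 markers of Kupffer cells and macrophages 0 were called by limma. At an unadjusted p under 0.05, 3 were lower and 0 higher, while 3 had a difference above 0. The median difference was −0.43, and the median level ran from 8.67 to 9.03 on the Keap1-KD arrays and from 9.16 to 9.44 on the Nrf2-null arrays. Csf1r, the macrophage growth factor receptor, differed by −0.81 (adjusted p = 0.131). Stellate cell markers had a median of −0.48 with 0 of 7 passing at either level. The part of these cells in the other results was not tested.

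Cyp7a1, the rate-limiting enzyme of bile acid synthesis, gave a call that depended on the probe set. Its brighter probe set stood at 6.02, 7.23 and 5.11 in Keap1-KD mice and at 7.70, 8.55 and 9.33 in Nrf2-null mice, a difference of −2.41 (standard error 0.66, adjusted p = 0.143). The second probe set differed by −2.16 (standard error 0.35) and passed in the fit over all probe sets (adjusted p = 0.0141). The Keap1-HKO mean of the first was 6.11 and the wild-type mean 9.19. Cyp7a1 was chosen for this remark after its values were seen.

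Keap1-HKO and wild-type mice took no part in the difference itself, and their means were set beside it. The wild-type mean lay between the Keap1-KD and Nrf2-null means for 55 of the 58 higher genes (94.8%) and 19 of the 22 lower ones (86.4%), against 42.5% of all genes. Called genes were chosen for a wide gap between these means, so the shares are a description. The exceptions were B3galt1, Cd59a, Nfe2l2, Erdr1, Gm2788 and Keap1. In the median higher gene the wild-type mean had covered a share of 0.644 of the way up to the Keap1-KD mean, counted from the Nrf2-null mean, and in the median lower gene 0.653. Over all genes with a difference above 0 the median share was larger, 0.913, and over all those under 0 it was 0.804. The Keap1-HKO mean lay beyond the Keap1-KD mean for 52 of 58 higher genes (89.7%) and 13 of 22 lower ones (59.1%), against 39.4% of all genes. All 4 genotypes stood in the order Keap1-HKO, Keap1-KD, wild-type, Nrf2-null, or its mirror image for lower genes, for 51 of the 58 and 11 of the 22, against 18.3% of all genes. Of the higher genes, Cbr3, Cyp2g1, Pparg and B3galt1 had both compared means under an intensity of 100. Such genes were kept only because wild-type or Keap1-HKO mice exceeded it, which in part fixed their place in these counts. Some genes were much farther on in Keap1-HKO mice: Cbr3 had a mean of 13.84 there and Abcc4 one of 12.04. Others were not, such as Aox3, with a Keap1-HKO mean of 11.05, and Noct, whose Keap1-HKO mean of 5.16 and wild-type mean of 5.13 were close to the Keap1-KD values.

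**Figure D4:**
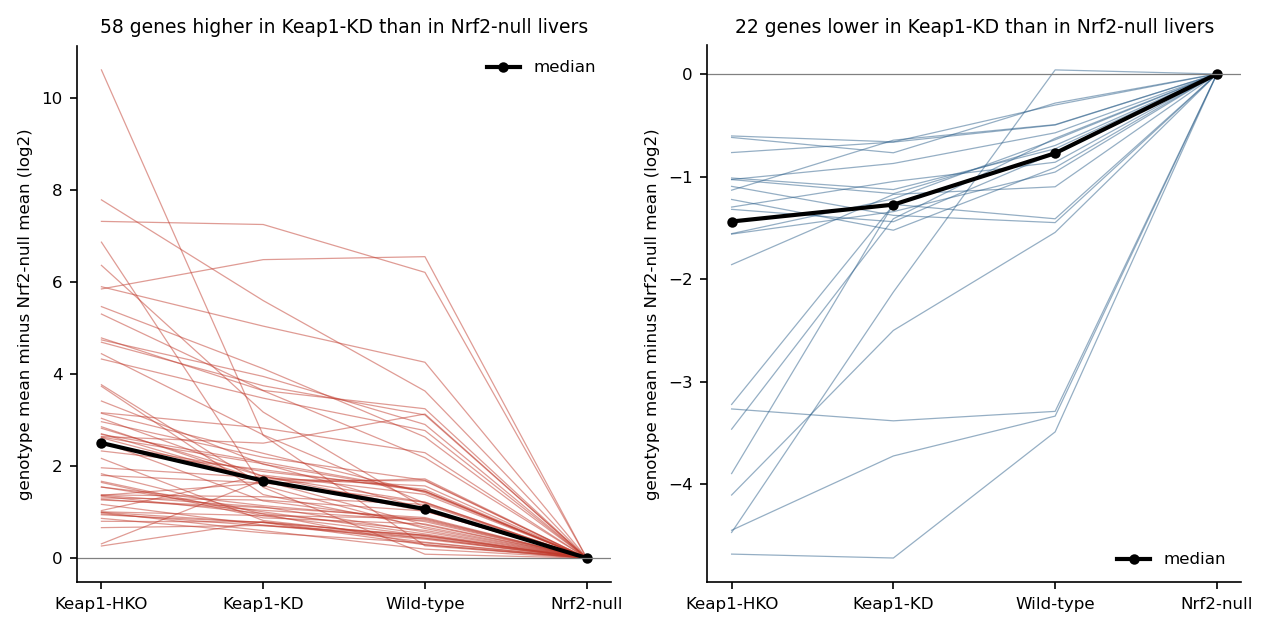
Genotype mean minus the Nrf2-null mean (y axis, log2) in Keap1-HKO, Keap1-KD, wild-type and Nrf2-null livers, 1 line per gene, for the 58 genes called higher (left) and the 22 called lower (right), with the median in black. Genes were chosen on the Keap1-KD and Nrf2-null values; the wild-type mean falls between them for 55 and 19 genes.

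Some called genes were near each other in the genome. Placed on the GRCm38.p6 gene order, 22 of the 80 called genes formed 13 pairs with at most 10 annotated genes between them, and in 6 of the pairs there was none between. The share of pairs among genes that were not called was not computed. In 11 pairs both genes were called in the same direction, and these were mainly members of gene families: Gstm1 to Gstm4, Ugt2b5, Ugt2b35 and Ugt2b36, Gsta2 and Gsta4, Cyp2c50 and Cyp2c54, Acsm1 and Acsm5, Aox1 and Aox3, and Abcg5 and Abcg8. The exception was Ephx1, which on chromosome 1 has 9130409I23Rik as its direct neighbour. In 2 pairs the directions were opposite: Nr1i3 was higher and the adjacent Tomm40l lower, and Abcg8 was higher and Slc3a1, 5 genes away, lower. The pairs were looked for after the calls were known. Around the targeted genes, where backcrossing can leave donor DNA, 0 of 8 measured genes were called among the 50 on each side of Nfe2l2, and 0 of 21 around Keap1. Of these, 1 and 2 were lower and 0 and 0 higher at an unadjusted p under 0.05, where 5.81% and 4.7% of all genes were. Since 0.99% of all genes were called higher and 0.376% lower, 0 calls among so few genes say little. Around Keap1, 5 of the 21 had all Keap1-KD arrays below all Nrf2-null arrays, against 13% of all genes, and 0 above. The median difference there was −0.21, against −0.03 over all genes, and that around Nfe2l2 was 0.04. A part of donor DNA was not tested.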

How the data were processed

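The authors deposited log2 gene expression values, made from the raw arrays with the affy and gcRMA packages in R, which correct for background, normalize the arrays and summarize each probe set. Their methods retained a probe set when 1 genotype or more exceeded an intensity of 100. Scanner files were not used. Of 9622 probe sets, 8554 had 1 gene symbol, 371 several and 697 none, and 5856 genes remained at 1 probe set per gene (the highest mean over 12 arrays). limma 3.58.1 (R 4.3.3; lmFit and eBayes, 8 residual and 2.19 prior degrees of freedom) was fitted to all 12 arrays and 4 genotypes without covariates. The contrast was Keap1-KD minus Nrf2-null, with Benjamini-Hochberg adjustment over the 5856 genes and calls under 0.05. The number of arrays limits the precision.

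The lists and the rule for named genes (Nfe2l2 and Keap1, the 15 largest rises and falls without overlap, up to 4 members per list with the lowest adjusted p) were chosen with earlier results of these data known. All 80 called genes and some members of the lists are named in addition, after their values were seen. Same-numbered Keap1-KD and Nrf2-null arrays deviated together (correlations of 0.290, 0.206 and 0.150), though Keap1-KD and wild-type replicates 3 did not (−0.056). Keap1-KD replicate 2 and Nrf2-null replicate 3 also did (0.208), while other pairs of unlike number lay between −0.292 and 0.013. Same-numbered Nrf2-null and Keap1-HKO arrays deviated together more strongly (0.787, 0.685 and 0.699). The numbers were treated as pairing the arrays in the block alternatives only. The fit that gave the 80 called genes and their p-values had no block. That pairing comes from the data, since the labels give only numbers. Scripts were tested on simulated data. The alternatives cover the arrays fitted, the variance model, Duncan's test, filters, scaling, probe sets, the block and single arrays left out. The block in the fit of 6 arrays was added after seeing the data.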

Additional observations from a re-analysis of the deposited data

Results flagged for a closer look

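Probe sets that list several gene symbols or none took no part in the comparison of genes. In the same limma fit over all 9622 probe sets, 15 of 1068 such probe sets were higher and 6 lower in Keap1-KD than in Nrf2-null mice at an adjusted p under 0.05, beside 90 and 29 of all probe sets, and they are given here because they carry a signal in data outside the main comparison. The probe set shared by Gsta1, Gsta2 and Gm3776 was higher by 4.8 on the log2 scale. That shared by Cyp2a4 and Cyp2a5, coumarin and steroid hydroxylases, was higher by 4.14. That shared by genes of the Ugt1a cluster was higher by 0.61, that of Rsph3a and Rsph3b by 0.84 and that of Chp1 and Gm20056 by 0.66. Probe sets without a symbol were higher by 3.75, 3.16, 2.72, 2.71, 2.21, 2.03, 1.74, 1.45, 1.24 and 0.97. Lower were the probe sets shared by Tulp4 and Gm2808 (−1.62), by Ppp1r10 and Gm8801 (−1.31) and by 9030025P20Rik and Gm3435 (−1.05). Those without a symbol differed by −4.0, −1.51 and −1.38.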

How the results depend on the processing

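Counts are given as genes higher and genes lower in Keap1-KD than in Nrf2-null mice, 58 and 22 in the report. They were 32 and 8 with only these 6 arrays, 42 lower with the 9 arrays without Keap1-HKO mice, 145 and 107 without Nrf2-null replicate 1 and Keap1-HKO replicate 1 together, 767 and 893 with array quality weights, 221 and 242 by Duncan's test on log2 values and 175 and 263 on un-logged values, and 5 lower after a second quantile normalization. The replicate block gave 36 lower (74 higher) and, in the fit of 6 arrays, 14 and 1. Leaving out 1 array gave 36 to 96 higher and 7 to 59 lower; without Keap1-HKO replicate 1 there were 96 and 59, and without Nrf2-null replicate 1 54 and 14, of which 50 and 12 were among the 58 and 22. Of the 58 higher genes 12 kept the call under all alternatives, of the 22 lower ones 0. Calls of 25 higher and 16 lower genes were lost under at least 1 omission of an array. No call changed direction under any alternative. The smallest difference called was 0.55, and 447 genes in Keap1-KD and 450 in Nrf2-null mice had a mean under the intensity of 100 set for an expressed probe.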
